A study of Drosophila melanogaster with 54 samples.

Results

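The ratio of heavy to medium polysomes was compared between activated eggs and mature oocytes of Drosophila melanogaster, gene by gene. It was taken as log2((heavy + 1)/(medium + 1)) of the normalized RPKM values within each sucrose gradient, where RPKM is a read density per transcript length and library size, and 1 was added to each value. A ratio of 0 means as much of an mRNA in heavy as in medium polysomes, and a ratio of 1 means 2 times as much. The genes were those listed in all 4 gradients without puromycin, 5374 of 14250 genes with an input value, and the values came from 8 of the series' 54 samples. The series covers fractionated polysome gradients and ribosome footprints of oocytes and eggs. The ratio uses only mRNA from the medium and heavy fractions. It describes how an mRNA was spread between these, apart from how much of it was on polysomes at all. Whether all mRNA in these fractions carried the stated number of ribosomes was not tested.

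In a sucrose gradient an mRNA moves further the more ribosomes it carries, so its place is taken to show how many ribosomes translate it at once. That number depends on how often translation starts, how long a ribosome takes to read the message and how long the coding region is. In Drosophila, egg activation takes place as the egg passes through the oviduct, without any need for fertilisation, and sets off a broad change in the translation of stored maternal mRNAs while transcription is silent. The pan gu (png) kinase complex, the mitotic cyclins and the repressor smg are known parts of that change.

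Oocytes were stage 14 oocytes of the OregonR strain, picked by hand from collagenase-treated ovaries of females 4 days old that had been fattened at 25 °C. Eggs were laid by OregonR virgin females kept with spermless twine (HB5) males and collected over 2 h at 23 °C, so they were activated and unfertilised. Each stage had 2 gradients, loaded with lysate holding 540 µg of total RNA, and all 4 lysates and gradients contained 0.5 mg/ml cycloheximide, which holds ribosomes in place on mRNA. Heavy polysomes were fractions of more than 10 ribosomes, medium ones of 5 to 9 and low ones of 2 to 4. The labels do not say whether the gradients of a stage came from separate flies, so p-values measure the spread between these gradients only, which may be technical. Puromycin (2 mM), which releases elongating ribosomes, was used on 1 further gradient per stage in other buffers without cycloheximide, and these gradients are given as values only. Every library was made from poly(A)-selected RNA, so a longer tail and more mRNA cannot be told apart.

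The oocyte gradients carried mRNA of follicle cells, the cells that surround the oocyte and make the eggshell, and the egg gradients hardly did. Of 24 follicle cell genes, 24 and 23 were listed in the oocyte gradients and 0 and 2 in the egg gradients. They made up 21.2% and 28.2% of the medium values and 8.56% and 18.1% of the heavy values in oocytes, against 0% in egg replicate 1 and 0.0268% and 0.0417% in egg replicate 2. None of the 24 was among the 5374 genes, and the part of follicle cells in other genes' ratios was not tested. The germline regulators described below were listed in every gradient of both stages. Spike-in RNA also differed with the stage. All gradients received 5 ng of yeast mRNA per fraction, and the egg gradients also 5 ng of luciferase RNA, which the oocyte gradients without puromycin did not. In replicate 1 of either stage the yeast mRNA went into 14 collected fractions before these were pooled, per the labels. The effect of these differences on the ratio was not tested.

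The gradients of a stage did not always resemble each other most. Across the 5374 genes, the ratios of oocyte replicates 1 and 2 had a Spearman rho of 0.369, those of egg replicates 1 and 2 of 0.751, and those of oocyte replicate 1 and egg replicate 2 of 0.584. Among the 582 genes whose medium and heavy values averaged over 200, these were 0.786, 0.81 and 0.791. Agreement between the oocyte gradients was therefore lowest where all levels were included. Genes are not independent replicates, and the values within a gradient share a library and its depth, which is unknown because the tables hold no read counts.

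Over all genes, heavy polysomes held less mRNA relative to medium polysomes in the eggs than in the oocytes. The median log2 ratio was 0.05 and 0.21 in the oocyte gradients and -0.30 and -0.04 in the egg gradients, so both eggs lay below both oocytes. The means were 0.13 ± 0.11 in oocytes and -0.17 ± 0.18 in eggs (SD, n = 2), a difference of -0.30. An exact two-sided permutation test gave p = 0.333, the smallest value that 2 gradients against 2 can give. The summed heavy values of the same genes were 1.07 and 1.22 times the summed medium values in oocytes, and 0.721 and 0.815 times in eggs. These levels rest on the authors' scaling of the fractions, since rescaling a whole fraction shifts every ratio of a gradient by 1 constant, apart from the added 1. Ratios were therefore also tested after each gradient was centred on its own median.

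No single gene passed the test. With limma, 0 of 5374 genes (0.0% in either direction) had an adjusted p under 0.05, as deposited or centred. The smallest adjusted p was 0.0639, shared by 48 genes, and with centring it was 0.0504, shared by 58 genes. At an unadjusted p under 0.05, 986 genes (18.3%) were lower in eggs and 193 (3.59%) higher, and with centring these were 576 (10.7%) and 526 (9.79%). The ratio of both eggs lay below that of both oocytes for 2275 genes (42.3%) and above it for 731 (13.6%), and with centring for 1413 (26.3%) and 1313 (24.4%). Centring sets the balance of lower and higher genes near even by its construction. Differences of single genes below are accordingly values with an error and not calls. Single gradients decided the count. Limma called 51 genes higher and 817 lower without egg replicate 2, 52 and 206 without oocyte replicate 1, 27 and 105 without egg replicate 1, and 3 and 40 without oocyte replicate 2, where the lone gradient of a stage is assumed to vary like the other pair.

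The difference between the stages varied with coding length. The mRNAs with short coding regions lay in medium rather than heavy polysomes in eggs, and this was less so in oocytes. Of the 5374 genes, 5275 (98.2%) had a coding length. For the 621 genes with 300 to 599 coding bases, the median log2 ratio was -0.41 and -0.42 in oocytes, against -1.77 and -1.30 in eggs. The median difference was -1.01, or 2.01-fold, and 443 genes (71.3%) were lower in both eggs than in both oocytes, against 12 (1.93%) higher. For the 754 genes of 600 to 899 bases the median was 0.03 in both oocyte gradients and -1.18 and -0.40 in eggs, with 476 genes (63.1%) lower and 10 (1.33%) higher. The egg gradients differed from each other there by more than egg replicate 2 differed from the oocytes, and both lay below the oocytes.

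Among the genes tested, those with 1500 coding bases or more showed no shift of that size. Genes too low in heavy polysomes of eggs to be listed there are left out, as described below. For the 1463 genes in between, of 900 to 1499 bases, the medians were 0.12 and 0.26 in oocytes, against -0.32 and 0.16 in eggs, so the stages overlapped, with a median difference of -0.32. For the 1179 genes of 1500 to 2399 bases they were 0.14 and 0.33 in oocytes, against 0.23 and 0.34 in eggs, with a median difference of -0.0068, and 337 genes (28.6%) were lower against 309 (26.2%) higher. Genes of 2400 to 3599 bases had a median difference of -0.05 and those of 3600 bases or more of -0.16. The 111 genes under 300 bases, which were low in heavy polysomes in every gradient, had medians of -0.97 and -0.95 in oocytes, against -1.32 and -1.48 in eggs. With each gradient centred, 57.8% of genes of 300 to 599 bases were lower and 4.19% higher in eggs, while of genes of 1500 to 2399 bases 14.3% were lower and 42.0% higher. The direction for longer genes therefore depended on the scaling, while genes of 300 to 599 bases were mostly lower with either.

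**Figure D1:**
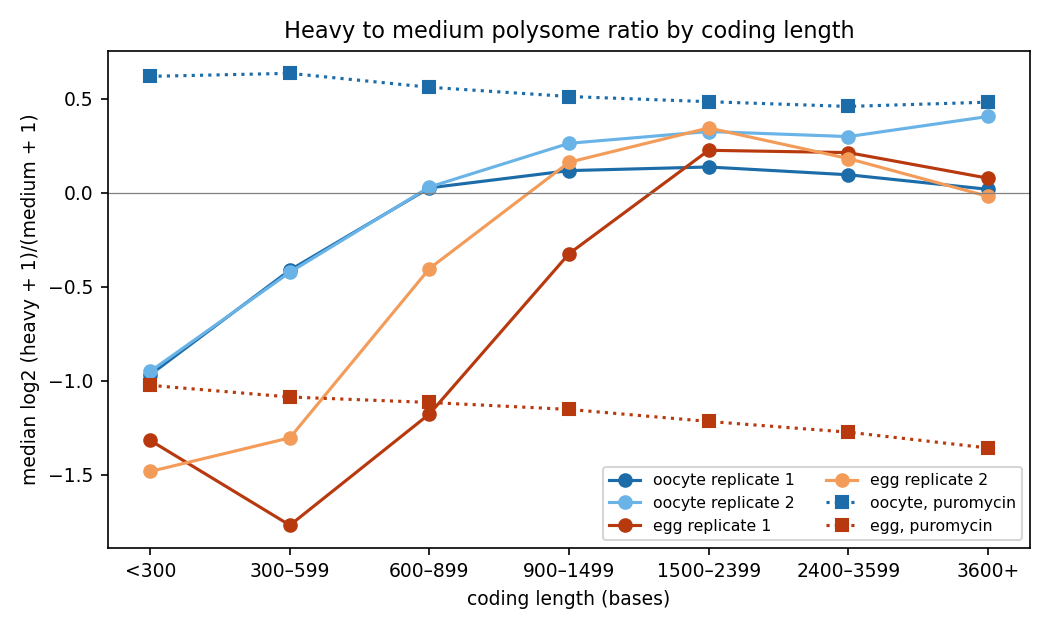
Median log2 ratio of heavy to medium polysomes (vertical axis) in 7 bins of coding length in bases (horizontal axis), with 1 line per gradient, solid without and dotted with puromycin. Between 300 and 899 bases both egg lines lie below both oocyte lines, from 1500 to 2399 bases the 4 lines lie between 0.14 and 0.34, and the puromycin lines vary far less with length.

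The relation held gradient by gradient, with different strength. Across 5275 genes the ratio and coding length had a Spearman rho of 0.28 and 0.373 in oocytes, against 0.658 and 0.426 in eggs. The difference between stages and coding length had a rho of 0.434. For single pairs of an egg and an oocyte gradient, rho ranged from 0.159 (egg replicate 2 against oocyte replicate 2) to 0.552 (egg replicate 1 against oocyte replicate 1), and without egg replicate 1 it was 0.253. All pairs thus had the same sign, and egg replicate 1 carried the larger share of it. Genes share libraries, and long coding regions went with low levels (rho -0.414 between coding length and the mean log2 level, also per length). The level itself and the difference had a rho of -0.199.

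The shares of each gene's mRNA over the 6 fractions of its gradient set the ratio beside the other fractions. They rest on the authors' scaling of all 6 fractions, and centring the ratios does not change that. The median share in heavy polysomes was lower in both eggs than in both oocytes in all 7 length bins, and the bins differed in the medium polysomes. For genes of 300 to 599 coding bases the median share in heavy polysomes was 14.0% and 12.6% in oocytes, against 4.73% and 7.92% in eggs, while that in medium polysomes was 19.8% and 18.3% in oocytes, against 18.2% and 23.5% in eggs. The medium share thus overlapped between the stages. For genes of 600 to 899 bases, heavy polysomes held 17.0% and 16.4% in oocytes, against 8.52% and 13.5% in eggs, and medium polysomes 17.5% and 16.6% in oocytes, against 22.4% and 18.7% in eggs. Genes under 300 bases had 28.3% and 27.3% in low polysomes in oocytes, against 45.6% and 30.3% in eggs, with egg replicate 1 standing above the other 3 gradients. For genes of 1500 to 2399 bases, heavy polysomes held 18.2% and 19.1% in oocytes, against 13.9% and 14.2% in eggs, and medium polysomes 16.3% and 15.3% in oocytes, against 11.6% and 11.0% in eggs. Both shares were thus lower in eggs at this length, where the ratio of heavy to medium differed little. Low polysomes held 24.2% and 23.1% there in oocytes, against 11.1% and 13.2% in eggs.

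**Figure D2:**
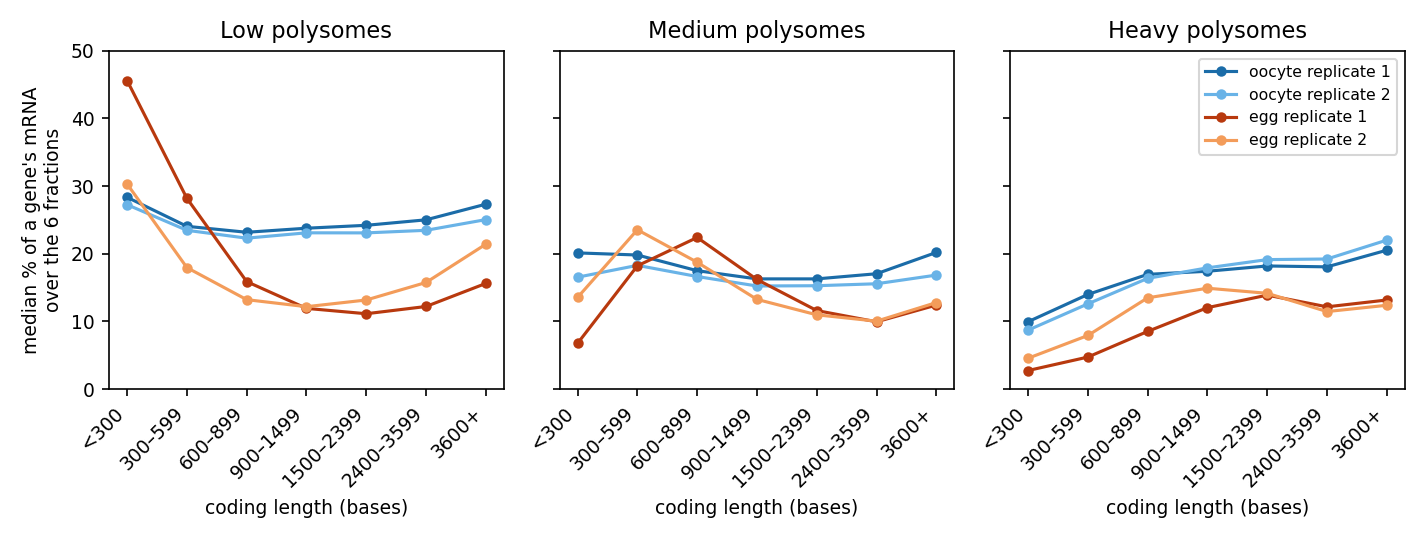
Median percentage of a gene's mRNA, over the 6 fractions of its gradient, that lay in low, medium and heavy polysomes (3 panels), by coding length in bases, with 1 line per gradient. In heavy polysomes both egg lines lie below both oocyte lines in all 7 bins, with 4.73% and 7.92% against 14.0% and 12.6% at 300 to 599 bases and 13.9% and 14.2% against 18.2% and 19.1% at 1500 to 2399 bases.

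The genes described next had the 10 largest differences in each direction. As none passed the test, they are those that met the other conditions set for naming: ratios that did not overlap between the stages, and a mean of heavy plus medium of at least 20 normalized RPKM in each stage. Of the 5374 genes, 2675 met these conditions.

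The mRNAs that stood furthest towards heavy polysomes in eggs included those of a nucleolar protein and a mitotic cyclin. Nopp140, a nucleolar phosphoprotein that assists ribosome production, had medium values of 98.6 and 54.4 normalized RPKM in oocytes, against 102 and 55.4 in eggs. Its heavy values were 87.6 and 36.5 in oocytes, against 363 and 162 in eggs. Medium polysomes thus overlapped while heavy polysomes were higher in both eggs, and the heavy share of its mRNA was 9.62% ± 1.74 in oocytes and 50.6% ± 6.21 in eggs (SD, n = 2). The log2 ratio differed by 2.04 ± 0.40 (SE; limma adjusted p = 0.0639).

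The mitotic cyclin gene CycA had log2 ratios of -0.12 and -0.22 in oocytes, against 1.74 and 1.61 in eggs. Its medium values were 592 and 440 normalized RPKM in oocytes, against 385 and 216 in eggs, and its heavy values were 545 and 377 in oocytes, against 1290 and 662 in eggs. Medium polysomes held less and heavy polysomes more in both eggs, so that the heavy share was 15.3% ± 0.338 in oocytes and 49.2% ± 4.91 in eggs (SD, n = 2). The difference in log2 ratio was 1.85 ± 0.40 (SE; limma adjusted p = 0.0667). The other genes with the largest positive differences were CG32176 (1.85), the MAP kinase gene rl (1.84), CG1603 (1.79), dah, needed for the cleavage furrows of the early embryo (1.75), CG7082, now papi, of the piRNA pathway (1.74), CG17528 (1.71), Rrp6, an exonuclease of the nuclear exosome (1.65), and CG8478 (1.65). For rl the oocyte gradients were apart by more than the difference itself, at 0.48 and -1.69, and the eggs stood at 0.76 and 1.71. All 10 genes had coding regions of at least 1128 bases.

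The mRNAs that stood furthest towards medium polysomes in eggs were mostly short, and 9 of the 10 had coding regions of at most 729 bases. Hsp27, a small heat shock protein, had heavy values of 3865 and 6734 normalized RPKM in oocytes, against 261 and 471 in eggs. Its medium values were 1119 and 1505 in oocytes, against 680 and 491 in eggs. Its mRNA was lower in both fractions in eggs, and by far more in the heavy one, whose share was 64.5% ± 0.563 in oocytes and 7.46% ± 2.38 in eggs (SD, n = 2). The log2 ratio was 1.79 and 2.16 in oocytes, against -1.38 and -0.06 in eggs, a difference of -2.69 ± 0.48 (SE; limma adjusted p = 0.0639). Hsp26, of the same family, had a difference of -2.16.

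His2Av, the histone variant gene H2Av, followed another course. Its heavy values were 760 and 869 normalized RPKM in oocytes, against 150 and 393 in eggs, while its medium values were 804 and 600 in oocytes, against 932 and 1333 in eggs. The heavy share was 24.3% ± 3.89 in oocytes and 9.67% ± 4.83 in eggs, and the medium share 20.8% ± 2.91 and 41.6% ± 3.86 (SD, n = 2). The heavy share was thus lower and the medium share higher in both eggs, and the log2 ratio differed by -2.42 ± 0.46 (SE; limma adjusted p = 0.0639). UbcD10, a ubiquitin-conjugating enzyme gene, showed the same pattern, with medium values of 178 and 196 in oocytes, against 582 and 656 in eggs and heavy values of 230 and 191 against 112 and 189. Its difference in log2 ratio was -2.25.

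The others were CG9328 (-2.60), CG9099, now DENR, a factor for translation restart (-2.43), CG9027, now Sod3, a superoxide dismutase (-2.33), CG7130 (-2.33), CG9705 (-2.32) and sqh, the regulatory light chain of nonmuscle myosin (-2.23). The exception to short length was CG8184, now named HUWE1, a ubiquitin ligase with a coding region of 15453 bases. It stood at 27.3 and 33.3 normalized RPKM in heavy polysomes of oocytes and 5.82 and 7.37 in those of eggs, and its log2 ratio differed by -2.73 ± 0.54 (SE; limma adjusted p = 0.0639). Its egg ratios were 0.09 and -1.58, the widest gap between eggs among these 10 genes apart from sqh, which had -2.0 and -0.19.

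**Figure D3:**
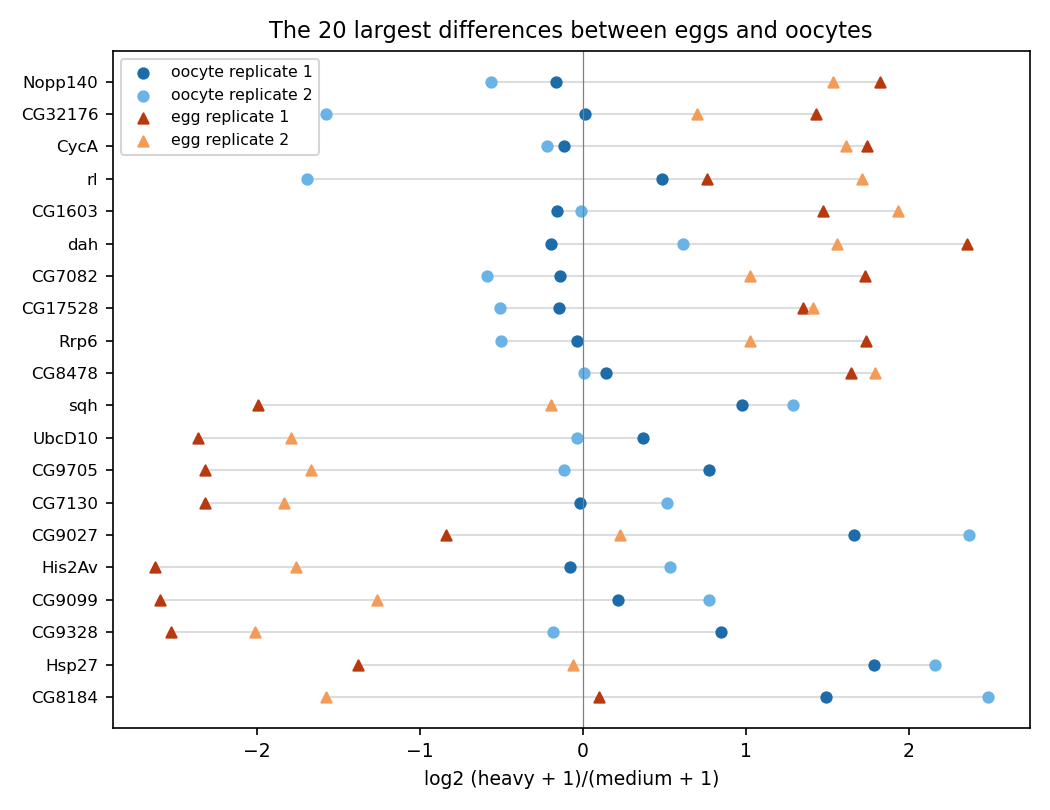
Log2 ratio of heavy to medium polysomes in each of the 4 gradients (horizontal axis) for the 20 genes with the largest differences, with circles for oocytes and triangles for eggs. The genes were chosen for not overlapping between the stages, from CG8184 at the bottom to Nopp140, with oocytes at -0.17 and -0.56 and eggs at 1.82 and 1.53, at the top.

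Among 30 regulators of activation, meiosis and patterning, all of which were listed, 9 (30.0%) lay higher in both eggs than in both oocytes and 13 (43.3%) lower, beside 13.6% and 42.3% of all genes. The median difference was -0.26, and -0.34 over all genes. The share lower and the median were thus near the background, and the share higher was above it. The regulators were chosen with earlier results of these data known, so no excess can be concluded from that share. Mitotic cyclin genes were among the highest. CycB had log2 ratios of -0.10 and -0.09 in oocytes, against 1.81 and 0.79 in eggs (difference 1.39 ± 0.44 SE, limma adjusted p = 0.108), and CycB3, a cyclin of anaphase, 0.49 and 0.42 against 1.59 and 1.25 (0.97). The anaphase-promoting complex activator fzy had 1.13 and 0.65 against 1.72 and 1.5 (0.72), and the kinase gene polo 0.56 and 0.66 against 0.87 and 0.90 (0.28). A higher ratio did not always go with more mRNA in heavy polysomes. For CycB3 and polo both fractions were lower in both eggs. Heavy values of CycB3 were 281 and 193 normalized RPKM in oocytes, against 183 and 104 in eggs, and those of polo 280 and 292 against 249 and 198. Heavy values of CycB and fzy overlapped between the stages.

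Repressors and patterning receptors were also among those higher in both eggs. The receptor gene tor, which patterns the ends of the embryo, stood at -0.29 and -0.12 in oocytes, against 1.19 and 1.15 in eggs (1.37 ± 0.36 SE, limma adjusted p = 0.0796), and Tl, the receptor of the back-belly axis, at -0.15 and -0.04 against 0.68 and 0.95. The mRNA of smg, whose protein brings about decay of maternal mRNAs, had heavy values of 195 and 119 normalized RPKM in oocytes, against 215 and 83.8 in eggs, and medium values of 215 and 126 against 109 and 51.9. Its heavy polysomes overlapped between the stages and its medium polysomes were lower in eggs, which gave a log2 difference of 0.93. The translational repressor brat stood at -0.36 and 0.74 against 1.29 and 0.95 (0.93).

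Genes of the png kinase complex lay the other way or overlapped. The log2 ratio of png was -0.11 and 0.54 in oocytes, against -1.08 and -0.95 in eggs (-1.23 ± 0.42 SE, limma adjusted p = 0.132), with both its fractions lower in eggs. Its partner plu, with a coding region of 522 bases, had -1.34 and -1.28 against -2.44 and -2.18, a difference of -1.0 that equalled the median of its length bin within 0.01. The activating subunit gnu had 0.70 and -1.02 in oocytes, against -1.28 and 0.31 in eggs, where the replicates of each stage were wider apart than the stages. The length bin of png and gnu had a median difference of -0.78. Relative to it png stood at -0.45 and gnu at 0.46.

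The mRNAs of mtrm, dhd, tral, cup, cort and wisp were lower in both fractions in both eggs. Medium values of mtrm, an inhibitor of Polo kinase, were 1030 and 1012 normalized RPKM in oocytes, against 147 and 103 in eggs, and heavy values 1937 and 2372 against 74.3 and 84.6. The thioredoxin gene dhd, whose protein acts on sperm chromatin, had medium values of 14894 and 18379 against 2359 and 1858 and heavy values of 16502 and 23845 against 915 and 1020. For mtrm and dhd the ratio describes the small part still found on larger polysomes in eggs, where the heavy share of mtrm was 4.94% ± 1.37 and that of dhd 4.45% ± 0.154 (SD, n = 2). The log2 ratio differed by -1.70 for mtrm and by -1.38 for dhd, or by -0.92 and -0.37 relative to the medians of their length bins. The log2 ratio differed by -1.09 for the repressor subunit tral, -0.77 for cup, -0.70 for the meiotic activator cort and -0.69 for the poly(A) polymerase wisp. Medium values overlapped between the stages for the phosphatase gene twe (-1.28), the calcineurin regulator sra (-1.16), the zygotic genome activator vfl (zld, -0.74), osk (-0.57) and bcd (-0.33), whose ratios were also lower in both eggs. With centring the ratios of vfl, osk and bcd overlapped between the stages. The genes stg, nos, hb, cad, me31B, pum and CG3509 (BigH1) overlapped between the stages, with differences from -0.34 to 0.20. With centring the ratios of stg, nos and cad were higher in both eggs.

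**Figure D4:**
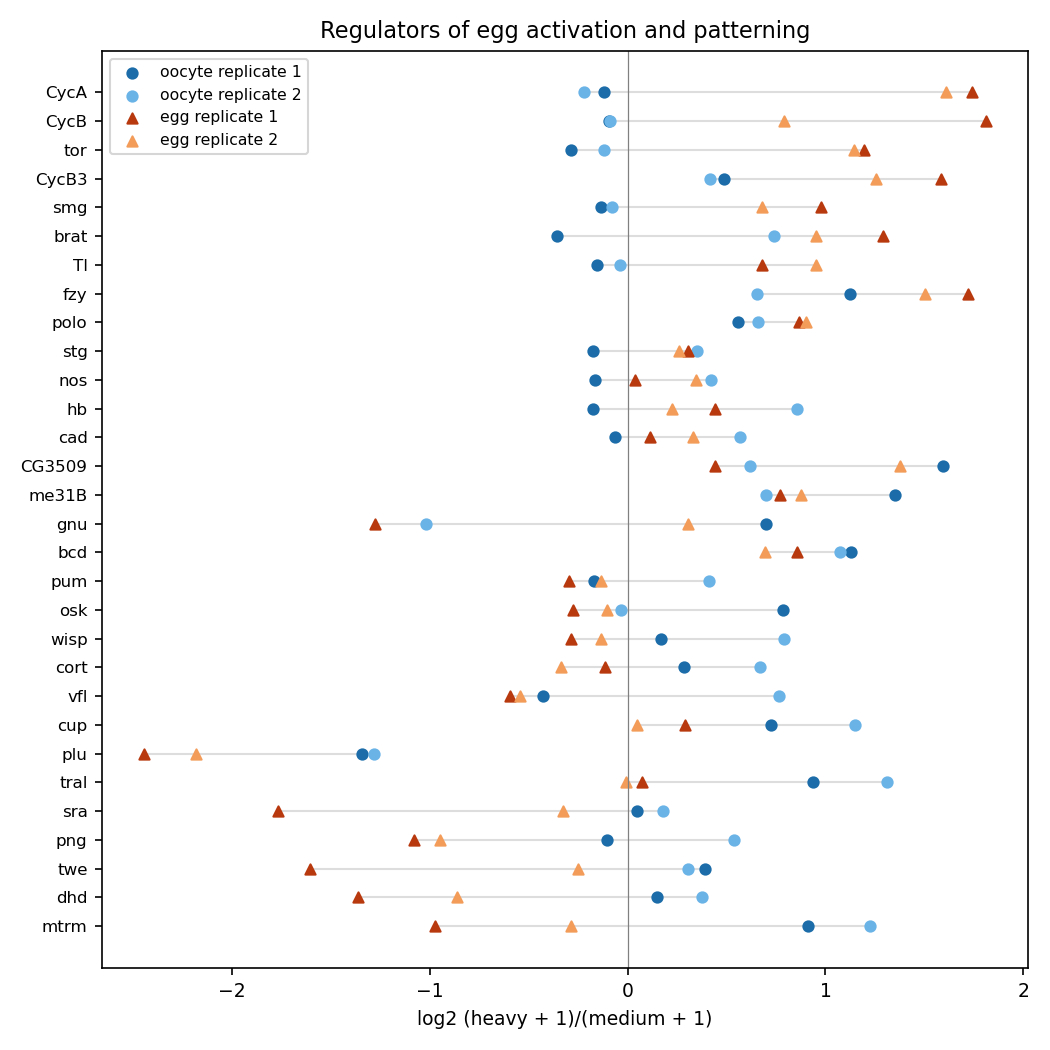
Log2 ratio of heavy to medium polysomes in each of the 4 gradients (horizontal axis) for 30 regulators, ordered by the difference between eggs (triangles) and oocytes (circles). CycA, CycB and tor are at the top with 1.85, 1.39 and 1.37, and mtrm is at the bottom with -1.70.

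Gene lists, also chosen with earlier results of these data known, are described by counts and medians, with no test of a list. The count is of genes for which both eggs lay beyond both oocytes, beside 42.3% lower and 13.6% higher over all genes and a median difference of -0.34. Of 73 mitochondrial ribosomal protein genes 50 were lower and 1 higher, with a median of -0.78. Of 66 genes of the respiratory chain and ATP synthase 38 were lower and 1 higher (-0.78), of 33 proteasome genes 18 and 0 (-0.54), of 36 histone and chromatin genes 19 and 2 (-0.69) and of 44 translation factors 22 and 4 (-0.48). Cytochrome c, Cyt-c-p, led the respiratory list. Its medium values were 596 and 637 normalized RPKM in oocytes, against 1149 and 2367 in eggs, its heavy values were 300 and 593 against 187 and 340, and its log2 ratio differed by -2.16. Other low members were COX5A, listed as CoVa (-1.96), mRpL50 (-1.66), the proteasome gene Pros29 (-1.43), Nlp, a nucleoplasmin-like histone chaperone (-1.97), the growth-related gene Tctp (-1.80) and Thor, which encodes the cap-binding inhibitor 4E-BP (-1.79).

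The lists differ in coding length, which the next values take into account. The median coding length was 582 bases for mitochondrial ribosomal protein genes and 462 for the respiratory list, and once the median difference of each gene's length bin was subtracted, the medians of these lists were -0.05 and 0.07. The proteasome median was -0.02 on the same scale, that of translation factors -0.16 and that of histone and chromatin genes -0.28. For the mitochondrial ribosomal, respiratory and proteasome lists little was thus left beyond the difference of their length bins. Cytosolic ribosomal protein genes, with a median coding length of 468 bases, did not lie as low as their length bins. Their median log2 ratio was -0.70 and -0.16 in oocytes, against -0.78 and -0.79 in eggs, 39 of 86 were lower and 4 higher, and the median difference of -0.34 was 0.52 above that of their bins. The oocyte gradients differed from each other by more than either egg gradient did from oocyte replicate 1. Its members RpL38 and RpL36, both of the large subunit, were higher in both eggs, with differences of 1.64 and 0.47.

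The medians of the remaining lists lay near or above that of all genes, though not all did so relative to their length bins. The piRNA pathway, which silences transposons in the germline, had 12 of 25 genes higher and 4 lower, with a median of 0.24, or 0.28 above its length bins. Its highest members were papi (1.74) and AGO3, a Piwi family protein (1.49), and its lowest squ (-1.34). For AGO3 the oocytes stood at 0.62 and -0.89 and the eggs at 1.12 and 1.60. Of 49 cell cycle regulators 12 were higher and 15 lower (-0.14), with gwl, the Greatwall kinase, at 1.51. Of 41 cytoskeleton and motor genes 12 were higher and 16 lower (-0.11), with the profilin gene chic at -2.19 and the kinesin gene Klp61F at 0.98. Of 39 regulators of maternal mRNA 6 were higher and 12 lower (-0.12), with the hnRNP gene glo at 1.18 and Not1, the scaffold of the deadenylase complex, at -1.10. Of 24 axis genes 5 were higher and 8 lower (-0.04), of 46 DNA replication and repair genes 6 and 22 (-0.31), and of 25 chaperones 1 and 8 (-0.40). Cdc6, which licenses replication origins, stood at 0.94, and the clamp loader gene RfC38 at -1.60. With the median of each gene's length bin subtracted, the chaperone median was -0.27 and that of DNA replication and repair -0.17. On that scale regulators of maternal mRNA were at -0.05, cytoskeleton genes at 0.07, and axis genes and cell cycle regulators at 0.12.

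The balance within several lists turned with the scaling. With each gradient centred, 11 axis genes were higher and 1 lower, 16 and 5 of the regulators of maternal mRNA, 17 and 10 of the cell cycle regulators and 15 and 9 of the cytoskeleton genes, beside 24.4% higher and 26.3% lower over all genes. Of the 30 regulators described above, 12 were then higher and 10 lower. The piRNA pathway kept its balance, with 14 higher and 2 lower, as did mitochondrial ribosomal protein genes, with 3 and 33, and the respiratory list, with 4 and 28. Of the other lists with more lower than higher genes, centring gave 1 higher and 9 lower for the proteasome, 7 and 12 for histone and chromatin genes, 9 and 18 for translation factors, 13 and 17 for cytosolic ribosomal protein genes, 9 and 12 for DNA replication and repair and 2 and 4 for chaperones.

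The next step down the gradient, from medium to low polysomes, was tested for the same genes with each gradient centred. Here 175 genes (3.26%) were higher and 151 (2.81%) lower in eggs by limma, with a smallest adjusted p of 0.0267. The mRNAs that rose mostly had coding regions of middle length. Of the 175, 97 were among the 1463 genes of 900 to 1499 bases and 52 among the 754 of 600 to 899. Of the 151 that fell, 26 were among the 111 genes under 300 bases. A further 31 were among the 621 of 300 to 599 bases and 50 among the 508 of 3600 or more. The median centred difference was -1.49 under 300 bases, 0.33 at 600 to 899 bases and -0.55 at 3600 or more. The count depended on the fit. It was 0 in either direction without a trend of the variance over the level, with 1440 genes at an unadjusted p under 0.05. It was 2 and 10 without oocyte replicate 2 and 370 and 458 without egg replicate 2.

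CG6013 rose most on this step, by 2.48 ± 0.36 (SE; limma adjusted p = 0.0267). Its medium values were 69.5 and 82.9 normalized RPKM in oocytes, against 624 and 469 in eggs, and its heavy values 70.7 and 89.5 against 141 and 386. Both fractions were higher in eggs, and as the medium one gained more, its log2 ratio of heavy to medium was 0.03 and 0.11 in oocytes, against -2.13 and -0.28 in eggs. A low heavy to medium ratio in eggs thus also occurred in an mRNA that moved up the gradient. CG1240, with 732 coding bases, did likewise, with 2.29 on the lower step and -1.23 on the upper. CG9797 (M1BP), a promoter-binding zinc finger protein, rose by 2.30 and had 1.26 on the upper step, and eIF4AIII, a helicase of the exon junction complex, rose by 2.14 and had 0.90.

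Among the genes that fell, RecQ4, a helicase of replication, dropped by 1.90 on the lower step and stood at -1.58 on the upper one. The ubiquitin ligase gene CG8184 fell by 1.79 and Not1 fell by 1.47. RpL38, with a coding region of 210 bases, fell by 3.05 on the lower step while its upper ratio stood 1.64 higher in eggs, with medium values of 876 and 327 normalized RPKM in oocytes, against 176 and 66.1 in eggs. RfC38 went the opposite way, rising by 1.86 on the lower step with -1.60 on the upper. A gene's values on the upper and lower steps share its medium fraction, so no relation between them is given.

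Ribosome footprints gave another reading of ribosome loading, with 1 library per stage in each of the states without and with cycloheximide. Translational efficiency compared a gene's footprint RPKM with its RNA RPKM, on the log2 scale with 1 added to both, and 5014 of the 5374 genes (93.3%) had a value. Across these genes the difference in the ratio and the difference in efficiency had a Spearman rho of 0.254 without and 0.274 with cycloheximide. Genes whose efficiency was at least 2-fold higher in eggs in both states, a threshold chosen after the data were seen, numbered 1654. Of these, 101 had 300 to 599 coding bases, and 90 of the 101 (89.1%) had lower ratios in both eggs and 0 higher ones, beside 402 of 561 (71.7%) lower and 10 (1.78%) higher among all genes of that length with footprints. Their median log2 ratio was -0.11 and -0.07 in oocytes, against -1.84 and -1.30 in eggs. Of the 67 genes of that length whose efficiency was at least 2-fold lower in eggs, 28 (41.8%) had lower ratios and 5 (7.46%) higher. These 67 genes already stood lower in oocytes, with medians of -0.64 and -0.66, against -0.98 and -0.86 in eggs. At 600 to 899 bases the shares with lower ratios did not follow the order seen at 300 to 599 bases. They were 56.0% for higher efficiency, 66.1% for lower efficiency and 63.5% for all genes with footprints. The median differences did follow it, at -0.83 for higher efficiency, -0.63 for lower efficiency and -0.79 for all genes with footprints. These differences between groups of genes were not tested.

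In mRNAs of 1500 bases or more with at least 2-fold higher efficiency, more ratios were higher than lower in both eggs, without centring. The size varied with length, with a median difference of 0.25 at 2400 to 3599 bases and 0.02 at 3600 or more. At 900 to 1499 bases it was -0.13, with 31.5% of the group lower and 18.4% higher. Of the 436 genes of 1500 to 2399 bases whose efficiency was at least 2-fold higher, 189 (43.4%) had higher ratios in both eggs and 58 (13.3%) lower, with a median difference of 0.31, beside 26.3% higher and 28.3% lower among all genes of that length with footprints. CycA, at 5.32 and 6.78 higher log2 efficiency, Nopp140, at 4.04 and 5.69, and CycB, at 2.77 and 5.09, had high ratios as well. His2Av (1.33 and 1.82) and Cyt-c-p (1.97 and 2.68) had higher efficiency with lower ratios. Of the 732 genes whose efficiency was at least 2-fold lower in both states, 430 (58.7%) had lower ratios in both eggs and 12 (1.64%) higher, beside 42.0% and 13.9% of all 5014 genes, and the median difference was between -0.31 and -0.63 in every length bin from 300 bases up. Hsp27 (-3.91 and -4.62) and mtrm (-4.70 and -4.22) were among them. The spread of efficiency between samples of a stage was not measured.

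**Figure D5:**
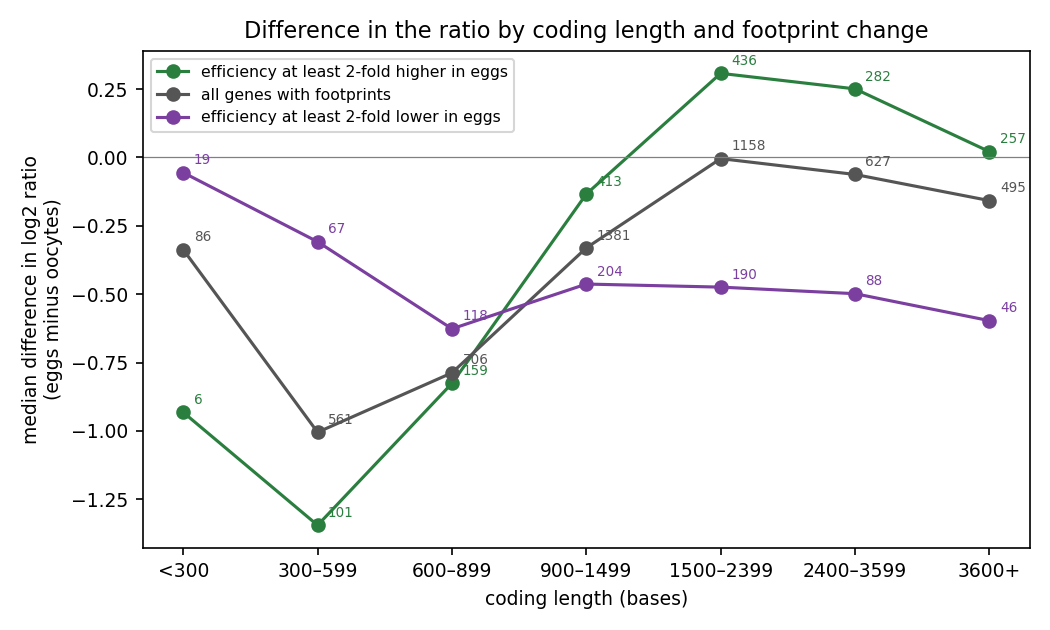
Median difference in log2 ratio, eggs minus oocytes (vertical axis), by coding length in bases for genes whose translational efficiency was at least 2-fold higher or lower in eggs in both cycloheximide states and for all 5014 genes with footprints, with the number of genes beside each point. At 300 to 599 bases the group with higher efficiency is lowest, at -1.35, and at 1500 to 2399 bases it is highest, at 0.31.

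After puromycin the medians of the length bins spanned a narrower range. The median log2 ratio was 0.51 in the oocyte and -1.19 in the egg puromycin gradient, and Spearman's rho with coding length was -0.0891 and -0.449. Its sign was thus opposite to that in the gradients without puromycin, and in the egg gradient the relation was not weak. Across the 7 length bins the medians ran from 0.46 to 0.64 in the oocyte and from -1.36 to -1.02 in the egg gradient. Heavy polysome fractions still held 14.0% and 12.6% of a gene's mRNA at 300 to 599 bases without puromycin and 12.6% with it in oocytes, while in eggs they held 4.73% and 7.92% without and 2.62% with it. At this length the oocyte value with puromycin was close to that of the lower gradient without the drug, and the egg value was below both. From 600 bases up the oocyte value with puromycin was also below both, as at 1500 to 2399 bases with 14.5% against 18.2% and 19.1%. Under 300 bases the oocyte value with puromycin was above both, with 12.2% against 9.95% and 8.70%. Drug and buffers cannot be told apart in these gradients, and each is a single one.

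The genes compared leave out mRNAs with little or no signal in heavy polysomes. Each gradient lists only genes with a heavy value of at least 4 normalized RPKM, as the lowest heavy values of the 4 gradients show, and 6297 and 6111 genes were listed in oocytes against 5611 and 5605 in eggs. Both oocyte gradients and neither egg gradient listed 458 genes, and the reverse held for 9. The 458 genes had a median heavy value of 10.9 normalized RPKM in oocytes, against 53.9 for the 5374 genes, and a median coding length of 1567.5 bases, against 1350 bases. Genes listed in oocytes only were therefore scarcer mRNAs in heavy polysomes, with a longer median coding region. The counts and the values by coding length above do not include them. How their absence changed the difference by length was not tested.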

How the data were processed

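Values were taken from the medium and heavy (and low) polysome tables of 2 oocyte and 2 egg gradients. The authors deposited normalized RPKM in them, per the file headers. How the yeast spike-in entered is not stated. The submitters' processing notes list TopHat 1.3.2, Bowtie, HTSeq, FastQC and the build dm3, and give no roles. Input and footprint tables likewise held RPKM. No read counts were available, so depth is unknown and no counting interval is given.

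Ratios were tested with limma 3.58.1 (lmFit, eBayes with a trend over the mean log2 level) (R 4.3.3). Tests were two-sided, and p-values were adjusted by Benjamini and Hochberg's method over all 5374 genes with a threshold of 0.05. The script was checked on simulated data. Summaries were made in python 3.11.15 with scipy 1.17.1, numpy 2.4.6 and pandas 2.3.3, and plots with matplotlib 3.10.9. Of the 5374 names 5282 matched a gene record. Coding length was that of the longest annotated coding region in an Ensembl annotation of BDGP6, used for lengths only, with bin bounds of 300, 600, 900, 1500, 2400 and 3600 bases.

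The genes, the 30 regulators and the 13 lists were chosen with earlier results of these data known. Named were the 10 largest differences per direction meeting these conditions of the rule: no overlap between the stages and a mean of heavy plus medium of at least 20 in each stage. Its further condition, an adjusted p under 0.05 in the same direction in both fits, was met by 0 genes. Named members of lists had the largest differences in each direction under the same conditions. In the follicle cell list, Cp1, Cp190 and Cp110 were removed after the tables were opened, because a name pattern had matched them and they are no eggshell genes. RpS10a and RpS15Ab, near-identical to other ribosomal protein genes, are not named as results, since their reads may be split between copies. Alternatives changed the pseudocount, filters, trend, centring, the gradients fitted and a replicate block.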

Additional observations from a re-analysis of the deposited data

How the results depend on the processing

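The lower median ratio in eggs kept its sign under each alternative without centring, with differences from -0.25 (pseudocount 5) to -0.32 (pseudocount 0.1) and from -0.431 to -0.177 when each gradient was left out. Centring removes the difference between gradient medians by its construction. Limma called 0 genes for the deposited ratio under the other pseudocounts, filters, centring and no trend. With all 6 gradients in the fit it called 4 higher and 57 lower, and leaving out 1 gradient gave 3 to 52 higher and 40 to 817 lower. Centred ratios, whose smallest adjusted p lay just above the threshold, gave 25 higher and 36 lower with a pseudocount of 0.1, 105 and 147 with a sum of the 2 fractions of at least 20, 30 and 51 with all 6 gradients, 26 and 44 without a trend, and 0 to 130 higher and 0 to 52 lower with 1 gradient left out. The medium to low ratio gave 94 lower with all 6 gradients, 0 and 0 without a trend, and 2 to 370 higher and 10 to 458 lower with 1 gradient left out. The cause of these changes was not tested.

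The labels do not say that replicate numbers pair the gradients, and deviations of same-numbered gradients had a correlation of -0.231 for heavy to medium and -0.1 for medium to low. With the replicate block the deposited ratio still gave 0 and 0 calls, with 958 genes at an unadjusted p under 0.05. With the same replicate block the centred ratio gave 51 higher and 55 lower and the medium to low ratio 368 and 438. With crossed numbers, a choice made after seeing the data, the counts were 0 and 0, 310 and 386, and 297 and 336.

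For coding length, rho was 0.471 with the sum filter, 0.353 with transcript length and 0.253 to 0.514 with 1 gradient left out. The leave-one-out runs and the 2 bins below were also added after seeing the data. The median difference at 300 to 599 bases was -0.702 with centring and -1.21 to -0.816 with 1 gradient left out, and at 1500 to 2399 bases 0.297 with centring and -0.0866 to 0.0145. As no follicle cell gene was among those tested, leaving that list out changed nothing.

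Of 684 single-gene values under alternatives, 16 changed sign, all among regulators with small differences. With 1 gradient left out the differences ran from -0.687 to 0.287 for CG3509, -0.348 to 0.285 for cad, -1.19 to 0.535 for gnu, -0.524 to 0.51 for hb, -0.529 to 0.123 for me31B, -0.228 to 0.357 for nos and -0.0697 to 0.461 for stg. With centring they were 0.104 for CG3509, 0.272 for cad, 0.297 for hb and 0.101 for me31B. Depth is unknown, so the precision of low values cannot be stated, and 14 genes were listed at 0 in medium polysomes of oocyte replicate 2 and 5 in those of egg replicate 2.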
